A study of Mus musculus with 32 samples.

Results

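The comparison described here is that of the spinal cord transcripts of 4 G93A mice given OKN-007 with those of 4 untreated G93A mice at 95 days of age. Its members are the 8 libraries that the labels name as transgenic at the earlier time, out of 32 libraries in all. The labels give this time as 90 days and the study's text gives 95 days, and the study's age is used. The dose of the sequenced mice was not assigned. G93A mice, on a C57BL/6J background, carry many copies of a human SOD1 gene with a glycine-to-alanine mutation under its own promoter, so the mutant protein is made in many cell types and not in motor neurons alone. WT mice are littermates without the transgene. The study describes its mice as predominantly female, with only females in its work at the higher dose. Treated mice drank OKN-007 in their water from several weeks of age until the tissue was taken, around the onset of disease. A piece of spinal cord was extracted for each library, and the level of the cord it came from is not given in the sources used here. Untreated G93A mice carry the numbers 9, 10, 11 and 12 in the labels and treated G93A mice the numbers 13, 14, 15 and 16, and these numbers name the mice below. The 4 untreated and 4 treated WT mice of the same age entered the same fit, and the 155-day mice were used only where they are named.

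Amyotrophic lateral sclerosis is a loss of motor neurons, and in mice with mutant SOD1 this loss is preceded and accompanied by activation of microglia, the resident macrophages of the cord, and of astrocytes. Microglia then lose genes of the resting state, such as P2ry12, and gain a set known as disease-associated genes, such as Cst7, Itgax and Clec7a. OKN-007 is a nitrone, a disulfonyl derivative of the spin trap PBN, known for antioxidant and anti-inflammatory action. The gene groups below were taken from these areas: glial activation, cytokines, antioxidant enzymes, mitochondria, neurons and vessels.

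The 8 libraries held between 19701722 and 30093272 reads counted on genes, and 3 counts corresponded to 0.0997 to 0.152 CPM, the unit of level used here (counts normalised to library size). Markers of neurons, motor neurons, oligodendrocytes, astrocytes and microglia were all measured, and 0 of the listed markers of these cells lacked reads in all 8 mice. Some libraries stood apart. Mouse 10, with the smallest library, had 43.1 CPM of Prx, the gene of periaxin, a protein of peripheral nerve, while the other 7 mice had between 0.408 and 0.912 CPM. Mice 13 and 14 had far fewer reads of the caudal Hox genes, which mark the lumbar and sacral cord, than the other 6 mice. Hoxd10 was at 0 CPM in both, at 17.6 and 12.9 CPM in treated mice 15 and 16, and between 5.17 and 16.1 CPM in the untreated mice. The 8 genes of the caudal Hox score summed to 196 and 160 counts in mice 13 and 14 and to 917 to 2484 counts in the other 6 mice. Values without these libraries are given beside many, but not all, of the lists and genes that moved with them. A gene given without such a value is therefore not shown to be stable.

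OKN-007 changed the level of no gene past the test. Of 18899 genes tested with edgeR's quasi-likelihood test, 0 (0%) reached an adjusted p under 0.05, and the smallest adjusted p was 0.837. At an unadjusted p under 0.05, 530 genes (2.80% of those tested) were higher and 520 (2.75%) were lower in treated mice. DESeq2 also called 0 genes, with 1098 at an unadjusted p under 0.05, and edgeR's likelihood ratio test called 0, with 1026. In 315 genes (1.67%) all 4 treated mice lay above all 4 untreated mice, and in 266 genes (1.41%) all 4 lay below. The split between higher and lower depended on the scaling: with upper quartile factors it was 391 against 738 and with library size alone 400 against 686, while the median log2 fold change over all genes was between -0.03 and 0.00 in all 3. The median half-width of the 95% interval of a log2 fold change was 0.28. For the 5472 genes with a mean level between 4 and 6 on the log2 CPM scale it was 0.20, so a difference of 1.15-fold lay at the edge of the interval of a typical gene of this level. For the 3277 genes below 0 on that scale it was 0.93, or 1.90-fold. These intervals are per gene and not adjusted for the number of genes tested. A typical gene needed a larger difference than this to pass the adjusted threshold.

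**Figure D1:**
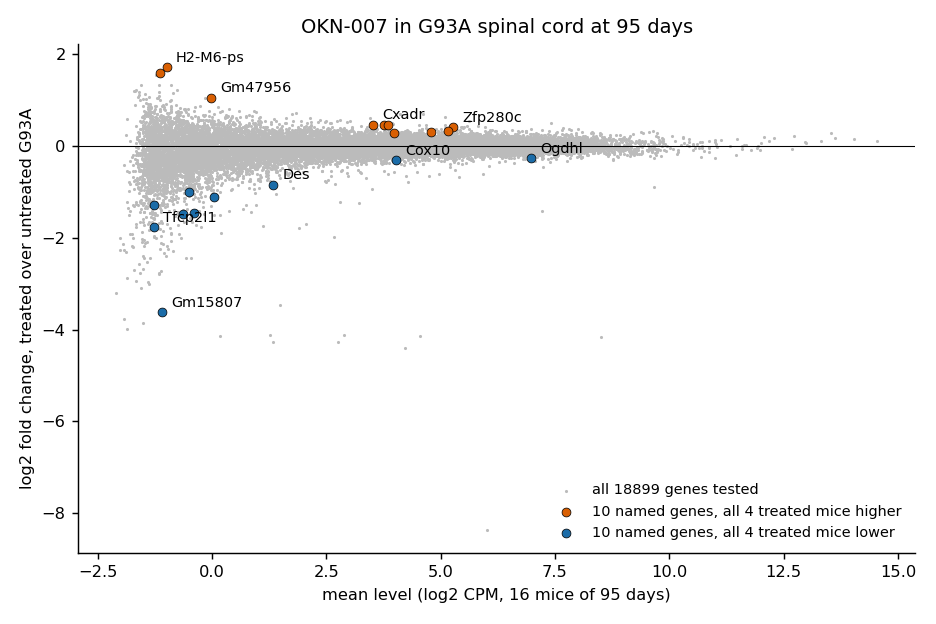
Log2 fold change of treated over untreated G93A mice at 95 days against mean level in log2 CPM, 1 point per gene for the 18899 genes tested, and 10 named genes higher in all 4 treated mice are orange and 10 lower in all 4 are blue. Most genes lie near 0, with a wider spread at low levels.

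The genes with the smallest p among those whose groups did not overlap were chosen for this difference, so their values are a description. Among the 10 higher in treated mice, 4 were of moderate level with log2 fold changes near 0.4. Cxadr, a cell adhesion protein known as the coxsackie and adenovirus receptor, was at 11.01, 8.91, 10.1 and 9.01 CPM in untreated mice and at 14.1, 12.4, 13.4 and 14.2 CPM in treated mice. Its log2 fold change was 0.47 (95% interval 0.23 to 0.70). Zfp280c, a zinc finger protein, was at 37.3, 27.4, 36.4 and 31.9 CPM in untreated mice and at 38.5, 44.6, 48.5 and 45.3 CPM in treated mice (log2 fold change 0.41, 95% interval 0.20 to 0.62). The gap between the groups was thus narrow for Zfp280c, where mouse 13 lay just above mouse 9. Gca, the calcium-binding protein grancalcin, was at 12.7, 9.01, 11.1 and 10.8 CPM against 13.7, 15.3, 14.1 and 16.7 CPM (log2 fold change 0.45, 95% interval 0.23 to 0.68). Zfp40, another zinc finger protein, had a log2 fold change of 0.45, where untreated mouse 9 (13.9 CPM) lay just below treated mouse 13 (14.1 CPM). Tbc1d12, a protein with a Rab GTPase-activating domain, differed by 0.32, Pkn2, a protein kinase, by 0.32, and Pigm, a mannosyltransferase of GPI anchor synthesis, by 0.28 on the log2 scale. The remaining 3 were transcripts of low level: Gm47956, with 0.487 to 0.743 CPM in untreated and 1.23 to 1.32 CPM in treated mice, Gm15789, and the class I histocompatibility pseudogene H2-M6-ps. H2-M6-ps had 4, 4, 4 and 5 counts in untreated and 17, 15, 16 and 14 counts in treated mice, and its reads may be shared with other genes of its family.

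Of the 10 genes lower in treated mice, Cox10, a farnesyltransferase in the synthesis of the heme A of cytochrome c oxidase, had the tightest groups. It was at 16.9, 17.9, 17.8 and 18.1 CPM in untreated mice and at 13.7, 14.6, 14.1 and 14.5 CPM in treated mice, a log2 fold change of -0.31 (95% interval -0.47 to -0.16). Ogdhl, a subunit of a mitochondrial oxoglutarate dehydrogenase that is expressed in brain, was at 124, 130, 154 and 140 CPM against 119, 111, 110 and 114 CPM (log2 fold change -0.27, 95% interval -0.43 to -0.10). Des, the intermediate filament protein desmin of muscle and vessel walls, was at 2.55, 3.21, 4.63 and 2.33 CPM against 1.67, 1.84, 1.75 and 1.77 CPM (log2 fold change -0.85). The treated mice were close to each other for Des, and untreated mouse 11 was the highest. The other 7 had few reads: the transcription factor Tfcp2l1 (0.270 to 0.828 CPM against 0.116 to 0.149 CPM), the photoreceptor arrestin gene Sag (0.888 to 1.83 CPM against 0.431 to 0.748 CPM), and the unnamed models Gm15807, Gm26512, Gm15998, Gm42918 and Gm19410. Gm15807 had the largest difference, -3.62 on the log2 scale, with 9, 47, 23 and 10 counts in untreated mice and 4, 1, 0 and 3 counts in treated mice.

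**Figure D2:**
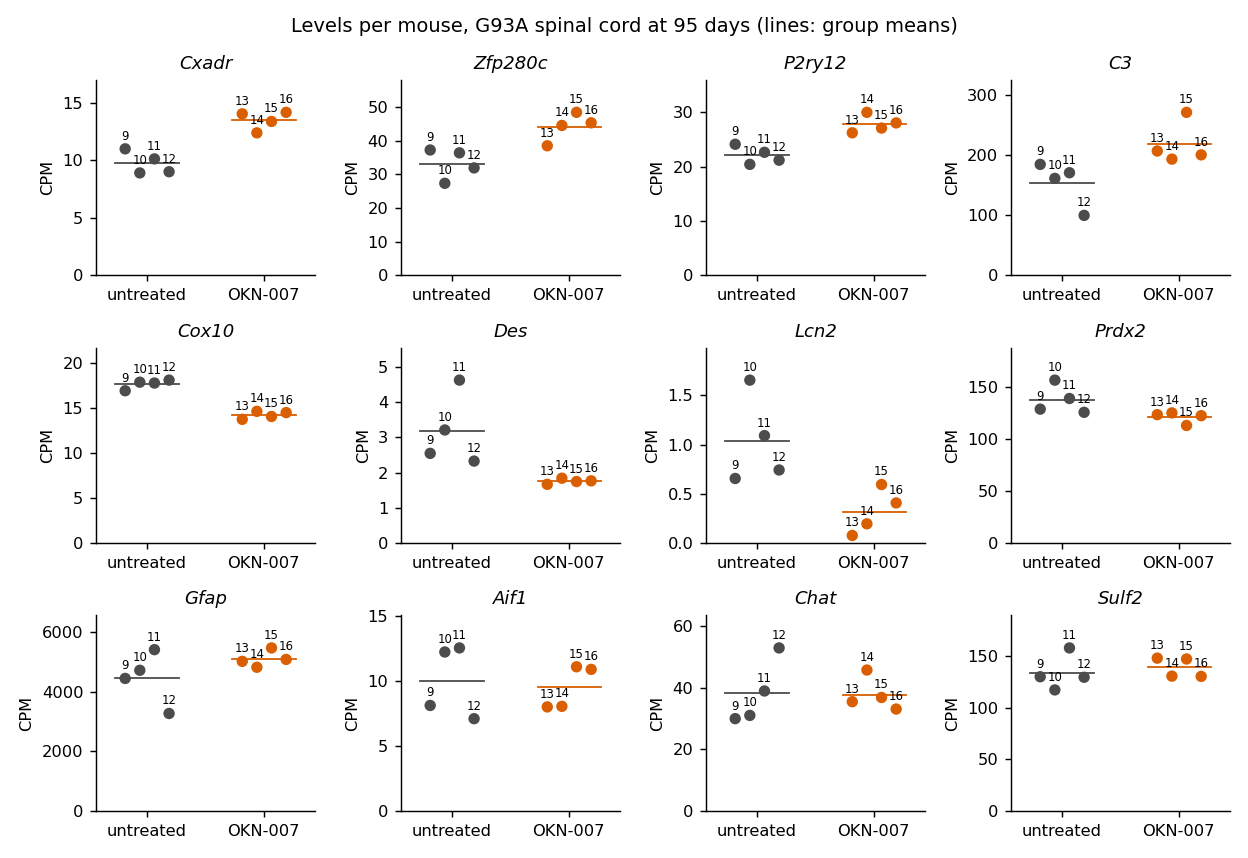
Level in CPM of 12 genes in each of the 8 G93A mice of 95 days, untreated (grey, mice 9 to 12) and OKN-007 treated (orange, mice 13 to 16), with group means as lines and axes that start at 0. Cxadr, Zfp280c, P2ry12 and C3 were higher and Cox10, Des, Lcn2 and Prdx2 lower in all 4 treated mice, and the groups overlapped in Gfap, Aif1, Chat and Sulf2.

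Mice that did not choose these genes were looked at next. In WT mice of the same age, 9 of the 10 genes that were higher in treated G93A mice had a positive log2 fold change under OKN-007, with Gm47956 (0.59) and Zfp280c (0.31) at an unadjusted p under 0.05. Of the 10 that were lower, 5 were negative in WT mice with 0 of these at an unadjusted p under 0.05. Cox10 differed by 0.01 and Ogdhl by -0.01 in WT mice. The WT groups also differed in caudal Hox genes, with a median log2 fold change of -2.30 over the 8 genes of the score. Their mean log2 CPM, relative to untreated WT mice, was -2.26 to 1.31 in untreated and -3.33 to -0.30 in treated WT mice. Markers of Schwann cells (-2.74) and meninges (-1.08) had negative WT medians too. The part of cord level in the WT values given here and below was not tested. In the 155-day G93A mice, which are other animals, 7 of the 9 higher genes that were tested were positive and 7 of the 9 lower genes were negative. Cxadr (0.40), Zfp280c (0.34), Zfp40 (0.28), Pkn2 (0.26), Cox10 (-0.23) and Gm15998 (-0.72) had an unadjusted p under 0.05 at that age. Beside this, 563 of all 18899 genes had the same sign and an unadjusted p under 0.05 in WT mice. In 155-day G93A mice these were 595 of 18223. Over all genes tested, the sign was the same in 56.0% of genes for WT mice and in 62.4% for 155-day G93A mice, and for the 1050 genes at an unadjusted p under 0.05 these shares were 65.2% and 75.7%. Across genes, the Pearson correlation of the log2 fold changes was 0.05 with WT mice and 0.16 with 155-day G93A mice. Genes are not independent replicates, so no p is given.

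The difference of the treatment effect between genotypes was tested for every gene and was called in 0 of 18899, with 531 genes at an unadjusted p under 0.05. DESeq2 called 0, with 534 at an unadjusted p under 0.05. The difference of the effect between ages in G93A mice was called in 0 of 19829 genes, with 466 at an unadjusted p under 0.05, and DESeq2 called 0, with 458. So an effect of OKN-007 particular to G93A mice or to 95 days was not detected for any gene that passed the filter on low counts.

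Listed genes of known pathways gave 529 tested genes in 39 lists, which overlap in part. Of these, 0 passed the adjusted threshold, and 16 (3.02%) were higher and 23 (4.35%) lower at an unadjusted p under 0.05, where all tested genes gave 2.80% and 2.75%. Leaving out mouse 10 reduced the 39 to 19, and leaving out mouse 9 raised it to 65. All 4 treated mice lay above all 4 untreated mice in 7 of the 529 listed genes, and below in 7. Over all 18899 genes tested these counts were 315 (1.67%) and 266 (1.41%), so listed genes without overlap were no more frequent than genes at large. The median log2 fold change over all genes was 0.00 to 2 decimals, and each list's median below is to be read against it.

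Microglial genes gave 1 gene of note among the markers of the resting state. P2ry12, a purine receptor of resting microglia, was at 24.1, 20.4, 22.6 and 21.2 CPM in untreated mice and at 26.2, 29.97, 27.1 and 28.03 CPM in treated mice. All 4 treated mice were above all 4 untreated mice, and the log2 fold change was 0.33 (95% interval 0.12 to 0.55), which did not pass the adjusted threshold. It was the only one of 12 resting-state markers at an unadjusted p under 0.05, and the median of the 12 was 0.05, or -0.02 without mouse 12 and 0.19 without mouse 11. Cx3cr1, the fractalkine receptor, was at 70.2, 61.9, 77.9 and 54.4 CPM against 58.3, 72.1, 105 and 95.6 CPM, and the groups overlapped. Aif1, the gene of the microglial protein Iba1, was at 8.11, 12.2, 12.5 and 7.09 CPM in untreated mice and at 7.998, 8.04, 11.1 and 10.9 CPM in treated mice. Its log2 fold change was -0.06 (95% interval -0.45 to 0.33), with overlapping groups, and with mice 13 and 14 left out it was 0.15.

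The genes of disease-associated microglia varied far more between mice of a group than between groups. Each mouse's mean log2 CPM over the 19 tested genes, relative to the mean of untreated WT mice, was 0.30, 1.11, 1.08 and -0.05 in untreated mice 9 to 12 and 0.18, 0.33, 0.91 and 0.95 in treated mice 13 to 16. Mice 10, 11, 15 and 16 were thus above the untreated WT range of -0.06 to 0.14 by a wide margin, and mouse 12 was within it. Clec7a, a receptor of this state, was also highest in mice 10, 11, 15 and 16: 3.21, 10.4, 8.17 and 1.49 CPM in untreated mice and 1.79, 3.06, 8.63 and 10.3 CPM in treated mice. Its log2 fold change was 0.06, with a 95% interval from -1.02 to 1.13. Of the 19 genes, 0 had an unadjusted p under 0.05, and the median log2 fold change was -0.06. With 1 mouse left out the median ran from -0.17, without mouse 12 or mouse 15, to 0.06, without mouse 10. It was -0.16 without mouse 9, -0.12 without mouse 16, 0.05 without mouse 11 and 0.01 without mouse 13, and it was 0.09 without both mice 13 and 14, whose caudal Hox reads were few. At an unadjusted p under 0.05, 2 genes were lower without mouse 12 and 1 without mouse 9. At the same threshold, 1 gene was higher without mice 13 and 14. Without mice 10, 13 and 14, 3 genes were higher and the median was 0.13. The direction thus depended on which mice were kept. With the caudal Hox score added to the fit the median was 0.06, with 1 gene higher at an unadjusted p under 0.05.

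Astrocyte genes gave a like picture. Gfap, the intermediate filament of astrocytes, was at 4442, 4715, 5407 and 3268 CPM in untreated mice and at 5015, 4817, 5465 and 5080 CPM in treated mice, with mouse 12 the lowest. The log2 fold change was 0.19 (95% interval -0.09 to 0.48). Aqp4, the water channel of astrocyte endfeet, was at 670, 547, 717 and 637 CPM against 663, 770, 899 and 837 CPM, with an unadjusted p under 0.05 and a log2 fold change of 0.30, although mouse 13 lay within the untreated range. Among 18 genes of reactive astrocytes, 5 were positive and 13 negative, with a median of -0.13. The median was 0.02 without mouse 11, -0.21 without mouse 9, -0.25 without mouse 15, 0.00 without mice 13 and 14, and 0.12 without mice 10, 13 and 14, so its direction depended on single mice. C3, the central complement protein, was higher in all 4 treated mice (185, 161, 171 and 99.9 CPM against 207, 194, 272 and 201 CPM; log2 fold change 0.50, 95% interval 0.12 to 0.89). It kept an unadjusted p under 0.05 in 20 of 22 alternative fits, with a lowest log2 fold change of 0.34. Without mouse 12 or without mouse 15, 0 complement genes were higher at that threshold, C3 included. Lcn2, which encodes the iron-siderophore binding protein lipocalin 2, was lower in all 4 treated mice, at 0.657, 1.66, 1.09 and 0.743 CPM against 0.0776, 0.196, 0.595 and 0.408 CPM (log2 fold change -1.65, 95% interval -2.92 to -0.39). Lcn2 rested on few reads, 17 to 34 counts in untreated and 2 to 16 in treated mice. In WT mice of this age its log2 fold change under OKN-007 was -2.41. In G93A mice it was -1.34 without mouse 10 and -1.02 without mice 13 and 14, and neither kept an unadjusted p under 0.05. Hspb1, a small heat shock protein, was at 18.2, 35.2, 42.3 and 20.2 CPM against 20.4 to 22.8 CPM, and its log2 fold change was -0.41, or -0.30 without mouse 10, with mice 10 and 11 the highest.

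**Figure D3:**
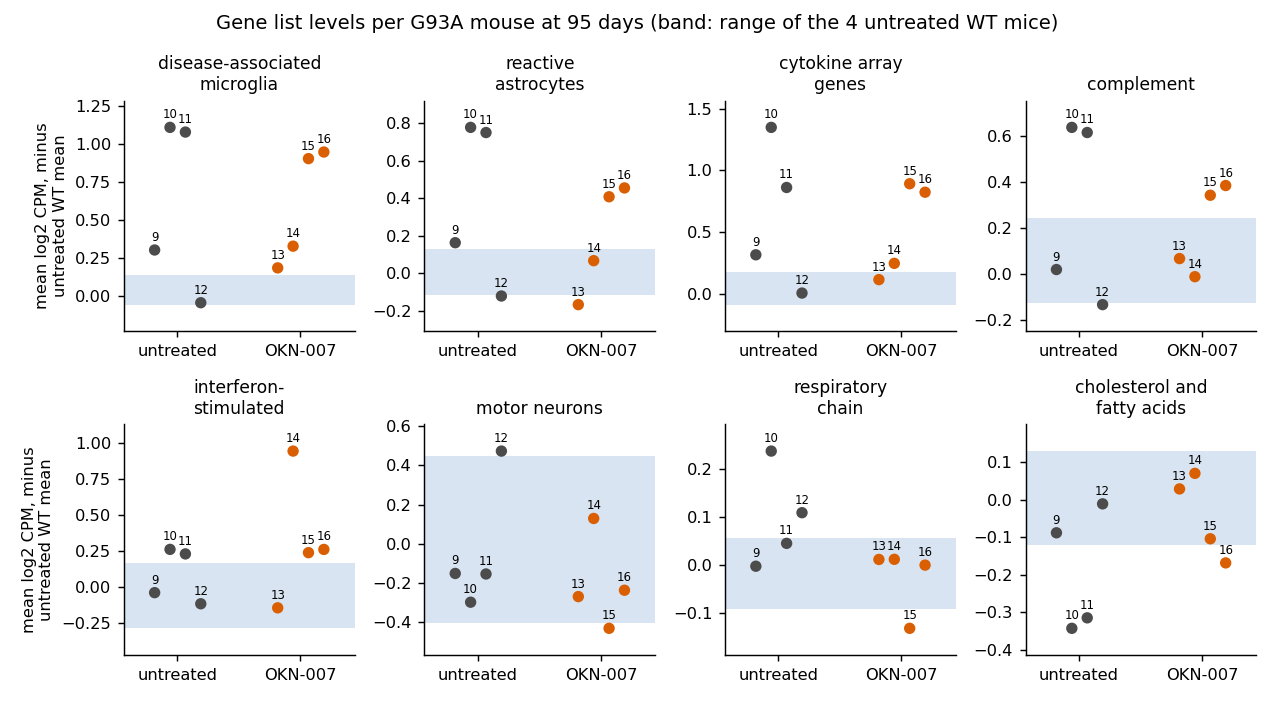
Mean log2 CPM of the tested genes of 8 lists in each G93A mouse of 95 days, relative to the mean of untreated WT mice, with untreated mice in grey, treated mice in orange and the range of the 4 untreated WT mice as a band. Untreated mice 10 and 11 and treated mice 15 and 16 were the highest of their groups for disease-associated microglia, reactive astrocytes, cytokines and complement, and treated mouse 14 was the highest for interferon-stimulated genes, where mice 10, 11, 15 and 16 also lay above the band.

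Cytokine transcripts were scarce. Of 40 genes whose proteins are on a cytokine array of the kind used in the study, 15 passed the filter on low counts. Il1b, the gene of interleukin-1 beta, did not: it had 1, 4, 3 and 0 counts in untreated mice and 0, 1, 3 and 11 counts in treated mice. Il1rn, the gene of the interleukin-1 receptor antagonist, was at 0.0386, 0.730, 0.393 and 0.0675 CPM against 0.116, 0.0392, 0.595 and 0.612 CPM, and the 95% interval of its log2 fold change ran from -1.52 to 2.02. A change of either transcript was therefore not detectable at this depth unless it was large. Il1a, the gene of interleukin-1 alpha, was at 0.541, 0.974, 0.393 and 0.338 CPM against 0.582, 0.510, 1.08 and 0.544 CPM. Il1r1, the signalling receptor of interleukin-1, was lower at an unadjusted p under 0.05 (3.98, 6.72, 9.91 and 4.79 CPM against 3.57, 3.69, 5.65 and 4.32 CPM; log2 fold change -0.55), with overlapping groups. Without mice 13 and 14 its log2 fold change was -0.34, no longer at an unadjusted p under 0.05. Cxcl11, a chemokine, was lower in all 4 treated mice (0.371 to 0.925 CPM against 0.186 to 0.311 CPM), and Hc, complement component C5, was at 0.574 to 1.22 CPM against 0.314 to 0.612 CPM. Without mouse 10 the log2 fold changes of Cxcl11 and Hc were -1.03 and -0.58. Without mice 13 and 14 they were -1.51 and -0.52. In both cases neither gene kept an unadjusted p under 0.05. The median over the 15 array genes was 0.02, and over 15 tested genes of the interleukin-1 pathway it was 0.15. Both moved with single mice: with 1 mouse left out, the array genes ran from -0.18 without mouse 12 to 0.20 without mouse 10, and the interleukin-1 pathway from 0.02 without mouse 15 and 0.04 without mouse 12 to 0.20 without mouse 13. Of 16 NF-kB pathway genes, Chuk, the kinase IKK alpha, was higher in all 4 treated mice (37.6, 30.1, 41.2 and 37.1 CPM against 44.0, 42.6, 44.0 and 43.4 CPM; log2 fold change 0.25), and its WT value was 0.22. Antigen presentation genes were negative in 14 of 16, with a median of -0.10 and 0 at an unadjusted p under 0.05, and complement genes had a median of -0.05. For antigen presentation the median was 0.03 without mouse 10, -0.03 without mouse 13, -0.01 without mice 13 and 14 and 0.10 without mice 10, 13 and 14, so its direction rested on libraries that stood apart. For complement it was 0.00 without mouse 10 or mouse 13 and -0.16 without mouse 12, where 5 genes were lower at an unadjusted p under 0.05.

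Interferon-stimulated genes were positive in 23 of 24, with a median log2 fold change of 0.32, and 4 had an unadjusted p under 0.05. This rested on mouse 14. Ifit3, an interferon-induced protein with tetratricopeptide repeats, was at 21.9, 30.04, 21.96 and 18.1 CPM in untreated mice and at 15.96, 72.3, 30.2 and 29.7 CPM in treated mice. Its neighbour and close paralog Ifit3b was at 16.03, 15.1, 16.7 and 13.8 CPM against 12.4, 46.3, 21.3 and 19.8 CPM. Mouse 14 was the highest and mouse 13 the lowest of all 8 mice for both genes. The RNA sensors Ddx58 (log2 fold change 0.54) and Ifih1 (0.42) were the other genes of the 4, and mouse 14 was the highest for these as well. Without mouse 14 the list's median was 0.06 and 0 of 24 had an unadjusted p under 0.05. Without mice 13 and 14 it was 0.17, with 2 genes. In WT mice the median was -0.07. These genes are known to be switched on through a promoter element with a repeated GAAA core. The motif GAAANNGAAA, searched on both strands and so also as TTTCNNTTTC, was in the promoter window (250 bases before to 50 after the start) of 13 of the 18 listed genes that RefSeq's table holds, or 72.2%, beside 1079 of all 27025 genes with a window, or 3.99%. Counted by window it was in 3.44% of all 32851. The 2 matches before the start of Ifit3 are shown with 10 bases on each side, motif in capitals, because they show how alike the paralogs are (RefSeq, GRCm38.p6, plus strand).
Ifit3, chr19:34583363-34583392: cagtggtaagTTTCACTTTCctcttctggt
Ifit3, chr19:34583397-34583426: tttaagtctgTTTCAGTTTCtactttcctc
The same 30 bases stand before Ifit3b, at chr19:34607759-34607788 and chr19:34607793-34607822. Reads that match both genes may have been split or dropped by the authors' counting, so their levels are uncertain one by one. A match describes the sequence and says nothing of what drove mouse 14.

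Antioxidant genes were examined because OKN-007 is an antioxidant. The 22 targets of Nrf2, the factor that switches on detoxifying enzymes, had a median of 0.01 and 1 gene at an unadjusted p under 0.05, the heme-breakdown enzyme Blvrb (6.18, 10.6, 8.17 and 6.72 CPM against 4.39, 6.39, 5.84 and 6.80 CPM; log2 fold change -0.43, or -0.26 without mouse 10). The per-mouse mean of these genes stayed between -0.02 and 0.09 on the log2 scale, relative to untreated WT mice, in all 8 G93A mice. Among 18 enzymes that remove superoxide and peroxide, 13 were negative, with a median of -0.08, or -0.03 without mouse 10. Prdx2, a peroxiredoxin that reduces hydrogen peroxide, was lower in all 4 treated mice, at 128, 156, 139 and 125 CPM against 123, 125, 113 and 122 CPM (log2 fold change -0.18, 95% interval -0.35 to -0.02). The highest treated and the lowest untreated mouse were both at about 125 CPM, and without mouse 10 the log2 fold change was -0.12. Sod3, the extracellular superoxide dismutase, was at 15.9, 20.8, 21.3 and 21.1 CPM against 13.1, 18.6, 13.4 and 17.6 CPM (log2 fold change -0.33), and Txn2, mitochondrial thioredoxin, differed by -0.15. Cat, the catalase gene, went the other way, with 103, 80.4, 88.4 and 98.8 CPM against 108, 115, 114 and 100 CPM (log2 fold change 0.23). The mouse Sod1 gene was at 328, 409, 359 and 300 CPM against 308, 295, 330 and 336 CPM, with a log2 fold change of -0.14 (95% interval -0.34 to 0.06). The table lists no human SOD1, and transgene reads that align to mouse Sod1 cannot be told apart. The 16 tested oxidant-producing enzymes, among them the NADPH oxidase subunits, had a median of 0.00 and 0 genes at an unadjusted p under 0.05.

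Nuclear genes of the respiratory chain were negative in 23 of 23, with a median of -0.12 and 3 genes at an unadjusted p under 0.05. Cox7a2, a subunit of cytochrome c oxidase, was at 49.2, 77.1, 53.9 and 51.0 CPM against 49.7, 48.1, 43.9 and 44.5 CPM. Ndufb8, of complex I, was at 107, 152, 107 and 119 CPM against 105, 106, 93.2 and 110 CPM, and Sdhb, of complex II, was at 121, 172, 136 and 128 CPM against 127, 123, 115 and 119 CPM. Mouse 10 was the highest of the 8 mice for all 3 genes. Without mouse 10 the median was -0.08, with 0 genes at an unadjusted p under 0.05. In WT mice the median was 0.00.

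Genes of cholesterol and fatty acid synthesis were positive in 19 of 22, with a median of 0.15. Hmgcs1, which makes the precursor of mevalonate, was at 748, 548, 618 and 796 CPM against 923, 910, 798 and 747 CPM (log2 fold change 0.32, 95% interval 0.07 to 0.57). Scd1, a fatty acid desaturase, differed by 0.27. Mice 10 and 11 were the lowest for Hmgcs1, Scd1 and the list as a whole. With mice 13 and 14 left out the median was 0.03 with 0 genes at an unadjusted p under 0.05, and with the caudal Hox score added to the fit it was 0.04, also with 0. In WT mice the median was -0.09. Oligodendrocytes make much of the cholesterol of the cord. Of 16 markers of their lineage 14 were positive, with a median of 0.13 and 0 at an unadjusted p under 0.05. In WT mice the median of these markers was 0.08. A link between these markers and the cholesterol genes was not tested.

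Motor neuron genes were negative in 17 of 17, and 0 had an unadjusted p under 0.05. Chat, the enzyme that makes acetylcholine, was at 30.01, 31.1, 38.99 and 53.0 CPM in untreated mice and at 35.5, 45.8, 36.9 and 33.1 CPM in treated mice. Its log2 fold change was -0.02 (95% interval -0.34 to 0.31). The neurofilament genes Nefm, Nefl and Nefh, which are strongly expressed by motor neurons, had log2 fold changes of -0.10, -0.19 and -0.25, with mouse 12 the highest of all 8 mice in each. The list's median was -0.19 with all mice, 0.03 without untreated mouse 12 and -0.10 without treated mouse 15, so its direction rested on mouse 12. With each of the other 6 mice left out in turn it was between -0.29 and -0.16. Each mouse's mean level was -0.15, -0.30, -0.15 and 0.47 in untreated mice against -0.27, 0.13, -0.43 and -0.24 in treated mice. In bulk tissue, fewer cells of a type and less RNA per cell cannot be told apart. Rbfox3, which encodes the neuronal protein NeuN, was at 210, 241, 229 and 214 CPM against 217, 203, 217 and 214 CPM (95% interval of the log2 fold change -0.24 to 0.09). Markers of neurons in general had a median of -0.03, or 0.08 without mouse 12, and neuropeptides 0.02.

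Vessel genes gave 3 of 16 at an unadjusted p under 0.05, all lower. Pecam1, an endothelial adhesion protein, was at 19.2, 16.8, 14.7 and 19.2 CPM against 14.4, 15.8, 15.3 and 15.5 CPM (log2 fold change -0.20), and its WT value was -0.28. Vwf, von Willebrand factor, was at 13.6, 19.4, 18.4 and 12.9 CPM against 6.64, 6.28, 15.6 and 13.3 CPM, and Acta2, the smooth muscle actin of arterioles, at 7.03, 6.82, 5.85 and 4.83 CPM against 3.18, 3.14, 3.83 and 6.46 CPM. Mice 13 and 14, which also had few caudal Hox reads, were the lowest of the 8 for both Vwf and Acta2, and mouse 15 was also below all untreated mice for Acta2. Without mice 13 and 14 the log2 fold change moved from -0.61 to -0.15 for Vwf and from -0.55 to -0.25 for Acta2. With these 2 mice left out the list's median moved from -0.12 to -0.03, with 1 gene at an unadjusted p under 0.05. With the caudal Hox score added to the fit the median was -0.06, with 0 genes at an unadjusted p under 0.05. Whether cord level caused these differences was not tested. Markers of meninges were negative in 7 of 7 and those of Schwann cells in 6 of 6, with mouse 10 far above the others in mean log2 CPM. In summed CPM of the meningeal markers mouse 11 was higher than mouse 10 (657 against 571 CPM). The medians for meninges and Schwann cells were -0.57 and -1.09 with all mice. They were -0.28 and -0.51 without mouse 10, where 0 genes of either list had an unadjusted p under 0.05. Prx was at 43.1 CPM in mouse 10, and the meningeal transporter Slc6a13 was at 2.34 CPM there and at 0.582 to 1.08 CPM in the other mice. Ptgds, a prostaglandin synthase of the meninges, was at 354, 486, 606 and 473 CPM against 429, 365, 377 and 380 CPM (log2 fold change -0.31), and its WT value was 0.28.

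Other pathways gave few genes. Hoxc9 (log2 fold change 0.34), a Hox gene of the thoracic cord, and Xist (0.28), the RNA of the inactive X chromosome, were also at an unadjusted p under 0.05. Without mouse 10 Xist differed by 0.18, no longer at an unadjusted p under 0.05. Sulf2, a sulfatase that trims heparan sulfate and a proposed target of OKN-007 in tumours, was at 130, 117, 158 and 129 CPM against 148, 130, 147 and 130 CPM. Its log2 fold change was 0.06 (95% interval -0.15 to 0.27), and 0 of 23 sulfatase and heparan sulfate genes had an unadjusted p under 0.05. Tgfbr1, a TGF-beta receptor, was at 20.7, 18.01, 24.9 and 22.04 CPM against 22.2, 23.3, 28.2 and 27.9 CPM (log2 fold change 0.24, or 0.17 without mouse 10), with a WT value of 0.31. In the circadian clock list Clock differed by 0.14 and Nr1d1, its repressor arm, by -0.22, where hours of tissue collection were not given in the sources used here. Cyp1b1, a cytochrome of the aryl hydrocarbon response (3.55, 5.26, 4.37 and 4.42 CPM against 2.72, 4.00, 2.98 and 3.47 CPM), and Ugt1a6a, a glucuronosyltransferase, were the 2 drug-handling genes at an unadjusted p under 0.05, both lower. Without mouse 10 their log2 fold changes were -0.32 and -1.21, with neither at an unadjusted p under 0.05. Dusp6, a phosphatase of the ERK pathway, was the 1 immediate early gene of 20, at 18.2, 22.4, 23.01 and 23.2 CPM against 19.7, 15.7, 18.3 and 20.2 CPM. Genes of myo-inositol metabolism, which bear on a metabolite seen by magnetic resonance, had a median of -0.02 and 0 of 11 at an unadjusted p under 0.05, and axon injury and stress genes a median of -0.06, or 0.04 without mouse 11, and 0 of 19. Glucocorticoid-responsive genes were negative in 12 of 12, yet with a wide spread inside each group and a median of -0.41 that ran from -0.85 without mouse 13 to -0.12 without mouse 11. Sgk1, a kinase induced by corticosteroids, was at 21.7, 133, 267 and 250 CPM in untreated mice and at 272, 137, 23.2 and 57.2 CPM in treated mice, so that each group held both the low and the high levels. Alb, a liver gene, was at 5.29, 5.36, 25.9 and 0.405 CPM against 19.6, 1.73, 0.707 and 19.97 CPM.

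Genes that differ in late disease were followed to ask whether treated mice at 95 days were nearer to or farther from that state. In 155-day mice, which enter no 95-day group, 3981 genes (21.3% of 18675) were higher and 3397 (18.2%) lower in untreated G93A than in untreated WT animals (edgeR's quasi-likelihood test, adjusted p under 0.05). Of these, 3785 and 3378 were also tested at 95 days. The mean log2 CPM of the higher genes, relative to untreated WT mice of 95 days, was 0.02, 0.16, 0.18 and -0.08 in untreated G93A mice 9 to 12 and 0.01, 0.04, 0.14 and 0.10 in treated mice 13 to 16. The group means differed by 0.00. The spread over untreated mice was thus far larger than the difference between the groups, and the treated mice lay inside it. For the lower genes the values were -0.01, -0.07, -0.10 and 0.10 in untreated mice and -0.03, -0.03, -0.11 and -0.03 in treated mice. The median log2 fold change under OKN-007 was 0.01 for the higher and -0.03 for the lower genes. Among the 3785 higher genes, 3.65% were higher and 1.64% lower in treated mice at an unadjusted p under 0.05, beside 2.80% and 2.75% of all genes. Among the 1315 that were higher at least 2-fold at 155 days, the shares were 1.98% and 2.28%. The 187 genes that were lower at least 2-fold at 155 days had a median of -0.18, with 1.07% higher and 6.42% lower at an unadjusted p under 0.05. Their mean level was 0.00, 0.15, -0.17 and 0.17 in untreated mice and -0.27, -0.20, -0.03 and -0.11 in treated mice, so that the groups overlapped through mouse 11. In WT mice it was -0.15 to 0.12 without and -0.28 to -0.06 with OKN-007. Mice 13 and 14 were the lowest of the 8, and the part of cord level was not tested.

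**Figure D4:**
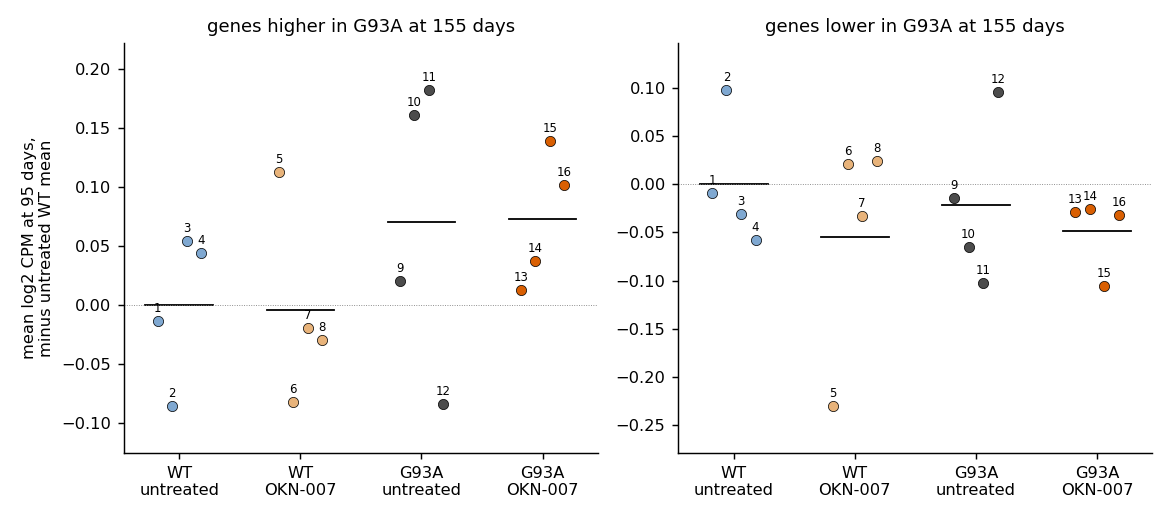
Mean log2 CPM at 95 days, relative to the mean of untreated WT mice, of genes higher (left) and lower (right) in untreated G93A than untreated WT mice at 155 days, 1 point per mouse with group means as lines. Untreated mice 10 and 11 and treated mice 15 and 16 are high on the left, untreated mouse 12 is the lowest G93A mouse there, and the means of the 2 G93A groups differ by 0.00.

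With no filter on low counts 8 of 41945 genes (0.0191%) reached an adjusted p under 0.05 in treated against untreated G93A mice. One of these was Gm15807, described above. The other 7, Gm10801, Gm10722, Gm11168, Gm10721, Gm10719, Gm10718 and Gm10717, are predicted genes on chromosomes 2 and 9 that share a stretch of the kind found in the mouse major satellite, the tandem repeat near centromeres. Gm10801 had 23, 6036, 1138 and 34 counts in untreated mice and 468, 14, 19 and 6 counts in treated mice. Gm10800, of the same kind and named after its values were seen, had 316, 93794, 16559 and 442 counts against 6966, 246, 277 and 149 counts. Untreated mice 10 and 11 and treated mouse 13 held nearly all of these reads, and the groups overlapped. The first 50 bases of the Gm10718 transcript are shown with the most similar stretch of Gm10801 and Gm10800, from GENCODE M21 transcripts, with bases that differ from Gm10718 in capitals.
Gm10718: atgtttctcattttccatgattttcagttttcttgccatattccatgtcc
Gm10801: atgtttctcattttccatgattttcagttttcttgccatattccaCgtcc
Gm10800: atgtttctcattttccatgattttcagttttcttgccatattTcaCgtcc
The same 50 bases are in Gm10717, Gm10719, Gm10721, Gm10722 and Gm11168 with 0 differences. Reads of this repeat cannot be assigned to 1 copy, so these 7 calls cannot be taken as 7 genes. In the fit with the filter, 6 of the 7 were tested, with log2 fold changes between -4.27 and -4.11, and 0 of these passed. Without mouse 10 the log2 fold change of Gm10718 was -1.57.

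Single mice moved the count of genes at an unadjusted p under 0.05 by more than 1.5 times. It was 1050 with all 8 mice, 477 without untreated mouse 10, 1819 without untreated mouse 9 and 1646 without untreated mouse 12. Leaving out untreated mouse 11 or any 1 treated mouse gave between 747 and 1160. Without mouse 10 and mice 13 and 14 it was 609. The adjusted count was 0 each time, with the filter on low counts in place.

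**Figure D5:**
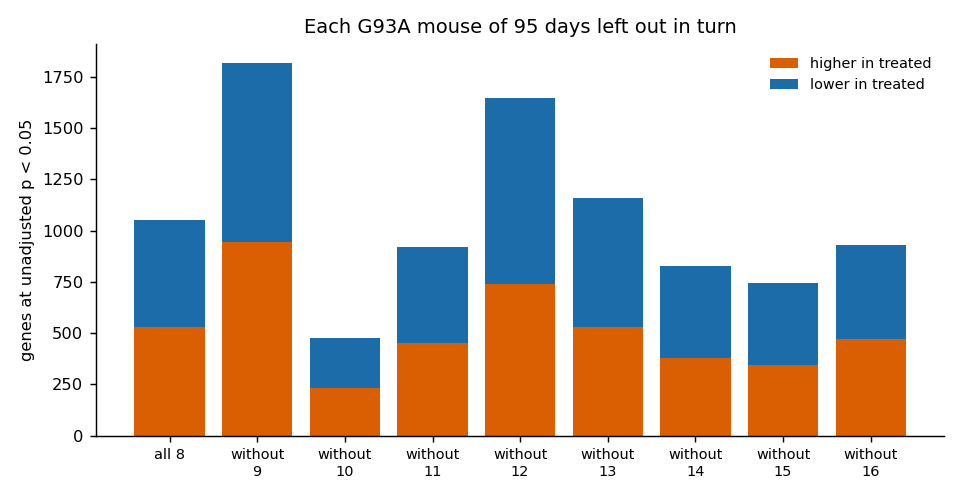
Number of genes at an unadjusted p under 0.05 between treated and untreated G93A mice of 95 days with all 8 mice and with each mouse left out in turn, split into genes higher (orange) and lower (blue) in treated mice. The bar without mouse 10 is the lowest, at 477, and the bars without mouse 9 and mouse 12 are the highest, at 1819 and 1646.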

How the data were processed

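Poly(A) RNA of spinal cord was sequenced as stranded libraries. The authors deposited 1 table of raw counts per gene, which are not normalized. The study's methods name Trimmomatic, STAR, HTSeq, GENCODE M10 and mm10, while the submitters' processing notes name STAR, featureCounts and GRCm39; the table holds gene identifiers newer than GENCODE M21, so the build is uncertain and no gene coordinates of the table are given. The strand setting of the counting is not given in the sources used here, so overlapping genes on opposite strands may share reads. Symbols came from GENCODE M21 for 41203 of 42524 identifiers (96.9%).

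The 16 mice of 95 days were fitted as 4 groups with edgeR 4.0.16 (filterByExpr, TMM, quasi-likelihood test, two-sided, Benjamini-Hochberg adjustment over all genes tested, threshold 0.05) in R 4.3.3. The 4 groups share 1 estimate of the spread. The difference between ages was fitted on all 32 mice. CPM values use TMM library sizes, and per-mouse means of lists use log2 CPM with a prior count of 2. Intervals come from the quasi-likelihood F and its degrees of freedom. Alternatives used DESeq2 1.42.0, sva 3.50.0 and other settings given in the closing section. No batch was named, so none could be compared. No pair of libraries of a group agreed within sampling noise (chi-square per gene of at least 4.39).

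The genes named are the 10 higher and 10 lower with the smallest unadjusted p among genes whose groups did not overlap, list members at an unadjusted p under 0.05, genes past the threshold with no filter, 9 genes tied to the drug or to proteins measured in the study (Sod1, Gfap, Aif1, Rbfox3, Chat, Il1a, Il1b, Il1rn and Sulf2), and up to 4 members per list with the highest mean CPM. Clec7a and Gm10800 were picked with their values in view. The comparison and the lists were chosen with earlier results of these data known. The labels do not say whether mice shared litters or cages, so p-values measure the spread between these mice. Counting intervals and floors cover counting error only. Some members of the lists are not reported here by name, but they remain in the fits and counts.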

Additional observations from a re-analysis of the deposited data

Results flagged for a closer look

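In 212 groups of 4 G93A mice of 95 days (named genes, lists, totals and late-disease means, untreated and treated apart), 13 had 1 mouse that lay far from the other 3 by Dixon's test at the 95% level. Chance flags about 1 in 20 groups. No explanation was weighed.

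Untreated mouse 10 was flagged 5 times. It was high for Prx (43.1 CPM), Gm19410 (1.80 CPM) and Cox7a2 (77.1 CPM), and its mean log2 CPM relative to untreated WT mice was 0.49 for markers of meninges and fibroblasts and 0.67 for markers of blood. Mouse 9, also untreated, was low for Sod3 (15.9 CPM) and Dusp6 (18.2 CPM). Mouse 11 was high for Ddx58 (7.29 CPM) and for the sulfatase and heparan sulfate list (0.023). Treated mouse 15 was high for Il1a (1.08 CPM) and low for the respiratory chain list (-0.13) and for the genes lower in late disease (-0.11). Treated mouse 16 was low for Scd1 (563 CPM).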

How the results depend on the processing

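The count of 0 genes at an adjusted p under 0.05 for OKN-007 in G93A mice held under DESeq2, the likelihood ratio test, robust dispersion, 3 other scalings, a stricter filter, all 32 or only 8 mice, a surrogate variable, the caudal Hox covariate, a threshold of 0.10 and each mouse left out (0 to 0). With no filter on low counts it was 8, that of the interaction with genotype 3 (Gm10801, Gm10800 and Gm15807, named after their values were seen) and that of WT mice 14, where the cause was not tested. Leaving out each mouse gave 0 to 0 for the interaction and for the difference between ages. The count at an unadjusted p under 0.05 was 3787 with no filter and 1957 with the surrogate variable, 477 to 1819 with 1 mouse left out, and 609 without mice 10, 13 and 14, the last chosen after seeing the data. Of listed genes it was 39, 75 with no filter, 68 with the surrogate variable and 19 to 65 with 1 mouse left out. The difference of the late-disease means was 0.00 for genes higher at 155 days (-0.05 to 0.04 with 1 mouse left out) and -0.03 for genes lower (-0.05 to 0.02), and with genes of at least 2-fold it was -0.19 for the latter. No named gene at an unadjusted p under 0.05 changed its sign. Treated and untreated mice of 95 days share no number in the labels. Numbers recur between ages, in mice that are different animals; deviations of same-numbered mice correlated by -0.21 to 0.13, with 1 of 8 pairs over 0.1, and 1 of 8 mice correlated best with its own number. With the number as a replicate block, the difference between ages was called in 0 genes. At the lowest levels, depth limits what could be seen.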
